A study of Mus musculus with 4 samples.

Results

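The transcripts of MEK, ERK and the proteins that act back on this kinase pair were compared in brain endothelial cells with and without PD-1. The group was defined by name and not by measured values, and its members were Map2k1, Map2k2, Mapk3, Dusp6, Spry1, Spry2, Spry4, Spred1 and Spred2. All 9 were found among the 21578 genes of the deposited tables. The cells came from C57BL/6 mice at postnatal day 0 and were sorted after labelling for CD31 and CD45. There were 2 libraries from Pd1fl/fl mice, which carry the loxP-flanked Pd1 allele, and 2 from Pd1cKO-Tie2 mice, in which the same floxed allele is combined with a Cre driven by Tie2. Tie2-Cre is also active in blood cells, and the sources used here do not say how many animals made up a library. The p-values below therefore measure the spread between these libraries, which may be technical.

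In endothelial cells, receptors for VEGF and FGF load RAS with GTP, RAF kinases then phosphorylate MEK1 and MEK2, and these phosphorylate ERK. Active ERK induces its own brakes, which include the phosphatase DUSP6 and the membrane-bound sprouty and SPRED proteins. The pathway drives sprouting and proliferation of blood vessels. It is controlled mainly by phosphorylation, which RNA counts do not show. The question addressed here was whether the RNA of its components differed between the genotypes.

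None of the 9 members met the criterion for a changed gene, a fold change of at least 2 with a p of 0.05 or less in edgeR's quasi-likelihood test. The same criterion called 4.02% of the 15909 genes tested. The 2 MEK genes, ERK1, Dusp6 and Spred1 were each held within a 2-fold difference by their 95% intervals. Spry2 had the largest difference, with a mean level 2.68-fold lower in Pd1cKO-Tie2 cells. It was the only member whose fold between genotypes was larger than its larger fold between libraries of 1 genotype, 2.19. The share of all genes tested with this property was not computed. The median log2 fold change was -0.01 over the 9 members and 0.00 over all genes tested, with 4 members above 0 and 5 below. Adjusted p-values of the members by edgeR lay between 0.808 and 1. Levels are given as CPM, read counts scaled to the library total and corrected by edgeR's TMM factors, in the order Pd1fl/fl replicate 1, Pd1fl/fl replicate 2, Pd1cKO-Tie2 replicate 1 and Pd1cKO-Tie2 replicate 2.

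**Figure D1:**
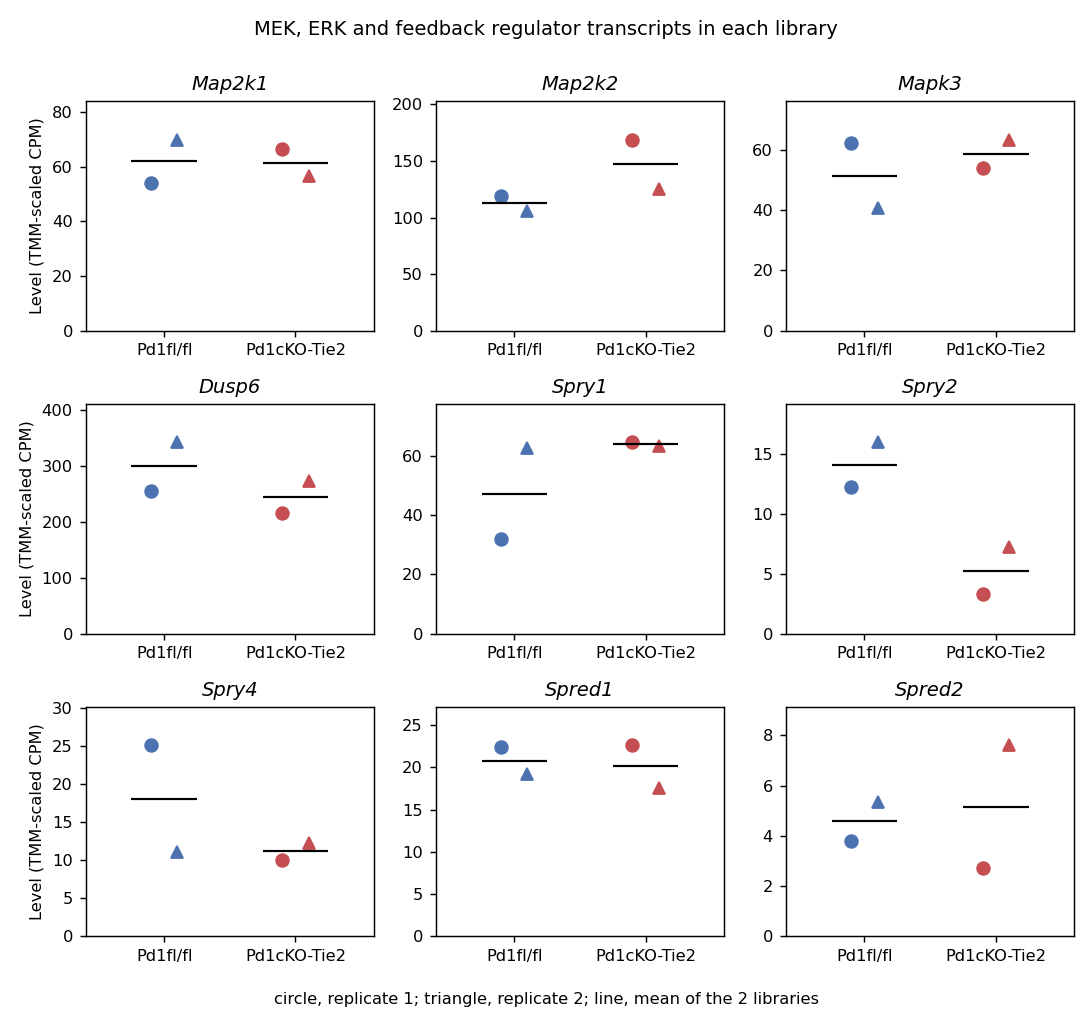
Level of each member in TMM-scaled CPM (vertical axes, starting at 0) in the 2 Pd1fl/fl and 2 Pd1cKO-Tie2 libraries, with circles for replicate 1, triangles for replicate 2 and a line at the mean of the 2 libraries. The genotypes are apart for Spry2, with 12.3 and 16.0 against 3.30 and 7.24, and by narrower gaps for Map2k2 and Spry1, while the points of the other 6 genes overlap. Of all genes tested, 18.1% were lower and 17.7% higher in both Pd1cKO-Tie2 libraries than in both Pd1fl/fl libraries.

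The libraries differed in more than genotype. Their totals ranged from 13715837 to 24147311 counts, with Pd1cKO-Tie2 replicate 1 the deepest. All 10 endothelial markers were detected in every library and their summed level was 10500 and 9580 CPM in the Pd1fl/fl libraries against 12400 and 13300 CPM with the gene deleted. All 10 were higher in both Pd1cKO-Tie2 libraries, with a median log2 difference of 0.34 and 0 called. Over all genes tested, 17.7% were higher and 18.1% lower in both Pd1cKO-Tie2 libraries, and 4.02% were called. The summed radial glia and astrocyte markers were lower in Pd1cKO-Tie2, at 787 and 773 against 504 and 375, with 5 of 6 genes lower in both libraries, 2 of them called, and a median of -0.97. Summed microglia and macrophage markers were 2020 and 2500 against 769 and 1710, with 7 of 9 genes lower in both libraries, 1 called, and a median of -0.88. Neutrophil markers summed to 906 CPM in Pd1fl/fl replicate 1, whereas the sums elsewhere were between 1.17 and 55.3 CPM. Of the 3 neutrophil genes tested, 2 were called, with a median of -5.05. Of the 7 listed, 0 were higher or lower in both Pd1cKO-Tie2 libraries. Mpo alone was at 168, 23.8, 53.4 and 0 CPM in the 4 libraries. In bulk samples, fewer cells of a type and less RNA per cell cannot be told apart. Pdcd1, the deleted gene, was counted 32 times in Pd1fl/fl replicate 1, with 0 counts everywhere else, so it was not tested and gives no check of the labels.

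**Figure D2:**
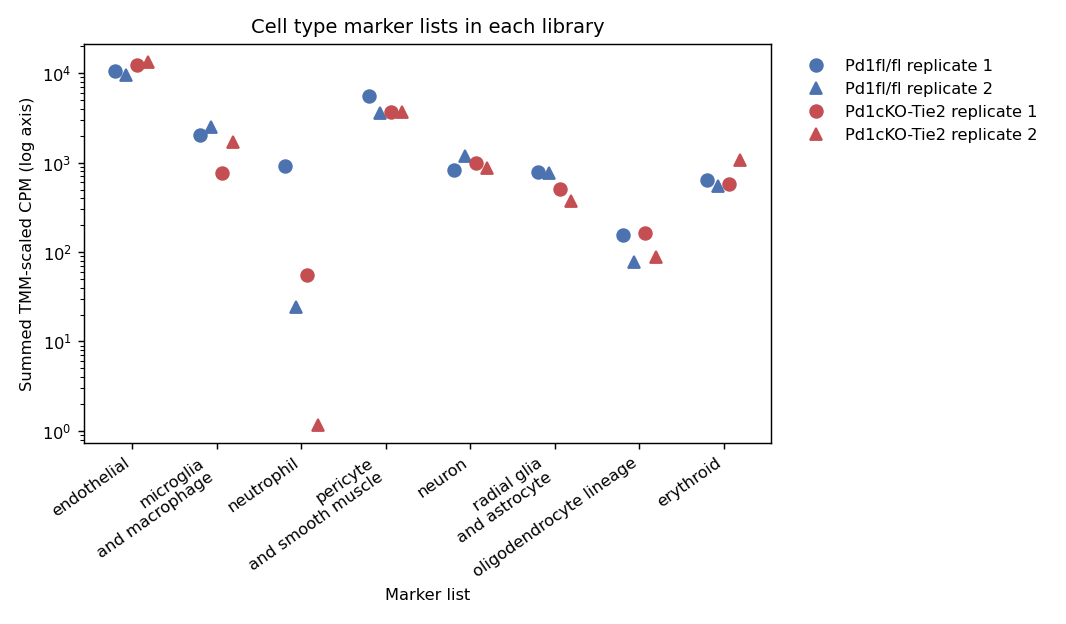
Summed TMM-scaled CPM (log axis) of 8 lists of cell type markers in each library, in blue for Pd1fl/fl and red for Pd1cKO-Tie2, with circles for replicate 1 and triangles for replicate 2. The endothelial sums are higher and the radial glia and microglia sums lower in both Pd1cKO-Tie2 libraries, and the neutrophil sum of Pd1fl/fl replicate 1, 906, stands above the other 3.

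Levels between genes were compared per kilobase of exon. By this measure Dusp6 was the most abundant member, with a mean of 86.8 CPM per kb over the 4 libraries and a range of 69.1 to 109, above 96.9% of the genes tested. Mapk3, Map2k2, Spry1 and Map2k1 followed with means of 24.3, 22.9, 19.1 and 18.2 CPM per kb, and their ranges overlapped. The next in order were Spry2, Spry4 and Spred1 at 4.65, 3.08 and 3.01 CPM per kb, again with overlapping ranges. Spred2 was the least abundant at 1.05 CPM per kb, above 22.4% of the genes tested, and its range of 0.588 to 1.65 overlapped with that of Spry2 alone. The lengths count every annotated exon of a gene, so they may exceed that of the transcript these cells use.

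The RefSeq sequence of the 250 bases upstream of the start is shown for 3 members. Spry2 and Spry1 were chosen because their levels were on opposite sides of the Pd1fl/fl libraries, and Map2k1 as the only searched member matching an ETS motif. ETS factors are among the transcription factors that ERK phosphorylates. The letters searched were CCGGAA and, for the other strand, TTCCGG, and a match is in capitals. Sequences were at hand for 7 of the 9 members, while Mapk3 and Spry4 had none and were not searched. The window searched for Spred1 ends at 117121070, before the gene start given below at 117121374. The bases at its RefSeq start were found in no GENCODE transcript of Spred1. Of 32851 upstream windows of this length in the RefSeq table (GRCm38.p6), 12% held the motif. The windows are chr14:105896820-105897069 on the minus strand for Spry2, chr3:37639697-37639946 on the plus strand for Spry1 and chr9:64253606-64253855 on the minus strand for Map2k1.
Spry2: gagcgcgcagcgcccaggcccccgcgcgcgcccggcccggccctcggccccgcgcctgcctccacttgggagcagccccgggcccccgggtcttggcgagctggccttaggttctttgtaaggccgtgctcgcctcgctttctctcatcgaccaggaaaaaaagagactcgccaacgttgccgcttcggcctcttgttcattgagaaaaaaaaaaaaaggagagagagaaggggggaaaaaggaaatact
Spry1: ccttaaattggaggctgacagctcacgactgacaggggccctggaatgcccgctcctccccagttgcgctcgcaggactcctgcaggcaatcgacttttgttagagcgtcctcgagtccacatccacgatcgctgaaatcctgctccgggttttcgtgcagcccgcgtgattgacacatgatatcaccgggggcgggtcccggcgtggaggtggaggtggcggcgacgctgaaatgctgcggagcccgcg
Map2k1: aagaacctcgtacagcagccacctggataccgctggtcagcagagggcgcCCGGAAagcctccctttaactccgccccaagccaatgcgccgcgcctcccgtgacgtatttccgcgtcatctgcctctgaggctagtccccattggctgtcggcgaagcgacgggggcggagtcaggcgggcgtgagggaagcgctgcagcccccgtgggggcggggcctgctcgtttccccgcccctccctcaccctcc
The match in Map2k1 begins 200 bases before the RefSeq start. The downstream end of this window overlaps the gene as placed below, whose 5' end is at 64253631. The absence of these letters elsewhere says nothing of whether an ETS factor acts on the gene.

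Map2k1 encodes MEK1 and lies on chromosome 9 (64185770 to 64253631, minus strand, GRCm38). Its level was 54.1, 69.9, 66.5 and 56.4 CPM, from 781, 995, 1593 and 772 counts. Both Pd1cKO-Tie2 values lay between those of the Pd1fl/fl libraries. Between genotypes the log2 fold change was -0.01 (SE 0.25, 95% interval -0.63 to 0.61). Its sign turned with the library left out, with values from -0.18 to 0.19.

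Map2k2 encodes MEK2 (chromosome 10, 81105915 to 81133975, plus strand). It was measured at 119, 106, 169 and 125 CPM, and both Pd1cKO-Tie2 libraries were above both Pd1fl/fl libraries, as were those of 17.7% of all genes tested. The log2 fold change was 0.38 (SE 0.22, 95% interval -0.15 to 0.92), with an adjusted p of 0.916 by edgeR. Without Pd1cKO-Tie2 replicate 1, the deepest library, it was 0.16. The endothelial markers, also higher in both Pd1cKO-Tie2 libraries, had a median of 0.34. Whether the Map2k2 difference stands apart from theirs was not tested. Of the summed MEK transcripts per kb, Map2k1 made up 43.1% and 52.4% in the control libraries against 39.6% and 43.0% in Pd1cKO-Tie2. The 2 groups are separated by the small gap between 43.1% and 43.0%, and the two-sided exact permutation test gave p = 0.333, the smallest that 2 libraries against 2 can give.

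Mapk3, the gene of ERK1, lies on chromosome 7 (126759601 to 126765819, plus strand). Its levels of 62.0, 40.6, 53.9 and 63.3 CPM overlapped between genotypes, and the Pd1fl/fl libraries were further apart than the Pd1cKO-Tie2 libraries. The log2 fold change of 0.19 (SE 0.29, 95% interval -0.54 to 0.92) became -0.08 without Pd1fl/fl replicate 2.

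Dusp6 encodes a cytoplasmic phosphatase that removes the activating phosphates of ERK, and its RNA is widely read as a marker of ERK activity. The gene is on chromosome 10 (99263231 to 99267489, plus strand). Its level was 256, 342, 216 and 273 CPM, from 3694, 4862, 5180 and 3742 counts, so counting error was small beside the spread between libraries. Pd1cKO-Tie2 replicate 1 was lowest and Pd1fl/fl replicate 2 highest, and Pd1cKO-Tie2 replicate 2 lay above Pd1fl/fl replicate 1. Its log2 fold change was -0.29 (SE 0.21, 95% interval -0.81 to 0.23), with an adjusted p of 0.973 by edgeR. The interval leaves out a 2-fold difference in either direction.

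**Figure D3:**
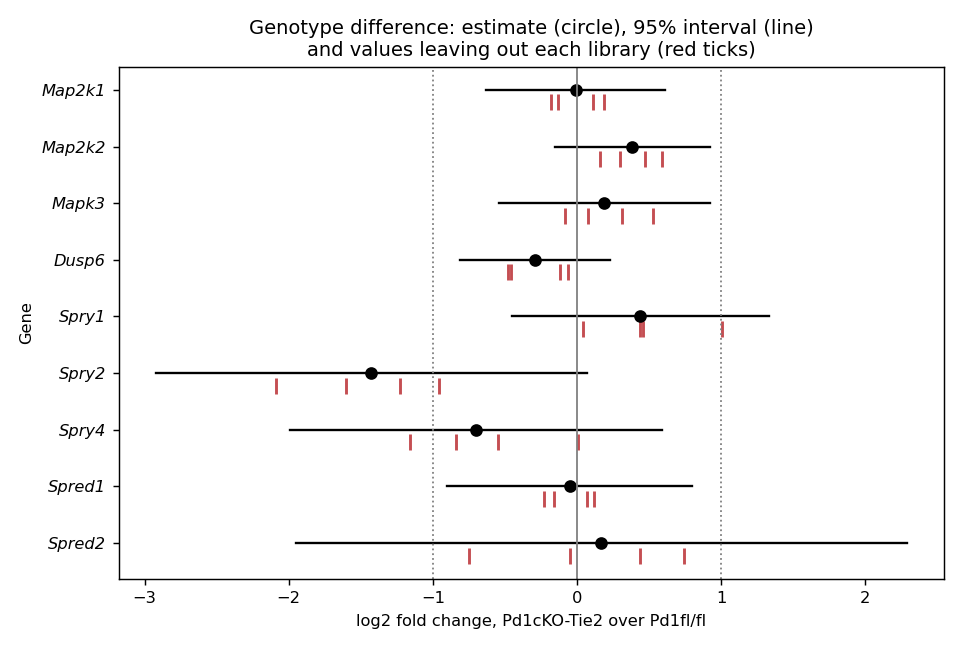
Log2 fold change of each member, Pd1cKO-Tie2 over Pd1fl/fl (horizontal axis), with the edgeR estimate as a black circle, its 95% interval as a line, the 4 values that leave out 1 library each as red ticks, and a 2-fold change as dotted lines. The intervals of all 9 members include 0, that of Spry2 just so (-2.92 to 0.07), and the interval of Spred2 is the widest (-1.95 to 2.29).

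The sprouty proteins sit at the membrane and dampen signalling from growth factor receptors to RAS and RAF. Spry2 (chromosome 14, 105891949 to 105896819, minus strand) was at 12.3, 16.0, 3.30 and 7.24 CPM, from 178, 227, 79 and 99 counts. Both Pd1cKO-Tie2 libraries were below both Pd1fl/fl libraries, an order shared by 18.1% of all genes tested. Exact Poisson intervals for counting error alone did not touch between the genotypes, at 10.6 to 14.3 and 13.9 to 18.2 CPM against 2.61 to 4.11 and 5.88 to 8.81 CPM. The Pd1fl/fl mean was 14.1 ± 2.57 CPM and the Pd1cKO-Tie2 mean 5.27 ± 2.78 CPM (SD, n = 2 each). The log2 fold change was -1.43 (SE 0.60, 95% interval -2.92 to 0.07).

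By edgeR its p lay just above the 0.05 of the criterion (adjusted p = 0.808), and it ranked 1135 among the 15909 genes. The criterion with a lower direction was met by 2.61% of genes. Spry2 met it by limma-voom (log2 fold change -1.66), when genes with at least 10 counts in every library were kept (-1.43), with library totals in place of TMM (-1.50) and without Pd1cKO-Tie2 replicate 2 (-2.09), and its adjusted p in these settings lay between 0.71 and 0.934. Without Pd1cKO-Tie2 replicate 1, in which it was lowest, the log2 fold change was -0.96. Spry2 did not meet the criterion by DESeq2, with no filter beyond 1 count, or with RLE or upper quartile scaling. The same held on leaving out any library other than Pd1cKO-Tie2 replicate 2. Its direction was lower in all of the alternatives run. The radial glia and microglia marker sums were lower in the same libraries, and their part in the Spry2 difference was not tested.

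Spry1 (chromosome 3, 37639947 to 37644598, plus strand) was at 31.9, 62.6, 64.6 and 63.4 CPM. Pd1fl/fl replicate 1 was low, and the other 3 libraries lay between 62.6 and 64.6 CPM. The groups did not overlap, by the gap between 62.6 and 63.4 CPM, with Pd1cKO-Tie2 above, an order shared by 17.7% of all genes tested. The 10 endothelial markers shared this order too, and whether Spry1 stands apart from them was not tested. On the log2 scale the fold change was 0.44 (SE 0.36, 95% interval -0.45 to 1.33). It was 0.04 without Pd1fl/fl replicate 1 and 1.01 without Pd1fl/fl replicate 2, where the criterion was met (adjusted p = 0.759 by edgeR). Of its exons, 710 bases overlap those of Gm42922 on the other strand, and since the sources used here do not say whether strand was used in counting, reads from the 2 genes cannot be told apart there.

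Spry4 on chromosome 18 was at 25.1, 11.1, 10.1 and 12.3 CPM. Pd1fl/fl replicate 1 stood above the other 3 libraries, and Pd1fl/fl replicate 2 lay between the Pd1cKO-Tie2 values. The log2 fold change was -0.70 (SE 0.52, 95% interval -1.99 to 0.59), and it was 0.01 without Pd1fl/fl replicate 1. This library, with the lowest Spry1 and the highest Spry4, also had the highest sum of neutrophil markers. Its sum of pericyte and smooth muscle markers was the highest too (5510 CPM, against 3560 to 3670 CPM in the others). Whether these sums bear on the sprouty values was not tested.

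Because the sprouty genes are paralogs, the balance of Spry1, Spry2 and Spry4 was computed within each library, where scaling cancels. Spry2 made up 26.6% and 24.3% of the sum of these 3 transcripts per kb in the control libraries against 6.09% and 12.4% in Pd1cKO-Tie2. The share of Spry1 was 49.6% and 68.3% against 85.7% and 78.3%. Neither share overlapped between genotypes, and both gave the smallest p that the design allows (two-sided exact permutation test, p = 0.333). The share of Spry4 was 23.8% and 7.41% against 8.16% and 9.26% and overlapped (exact permutation p = 1). Spry3, the remaining sprouty gene, had 42, 57, 84 and 18 counts and no exon length under its identifier, so it is not in these sums. In raw counts with Spry3 included, Spry2 made up 17.1%, 17.0%, 4.05% and 8.59%, and this share too did not overlap between genotypes. Set against Dusp6 in the same way, Spry2 stood at ratios of 0.0723 and 0.0701 in the controls, against 0.0229 and 0.0397 in Pd1cKO-Tie2. These ratios use the same Spry2 counts, so they are no separate evidence.

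**Figure D4:**
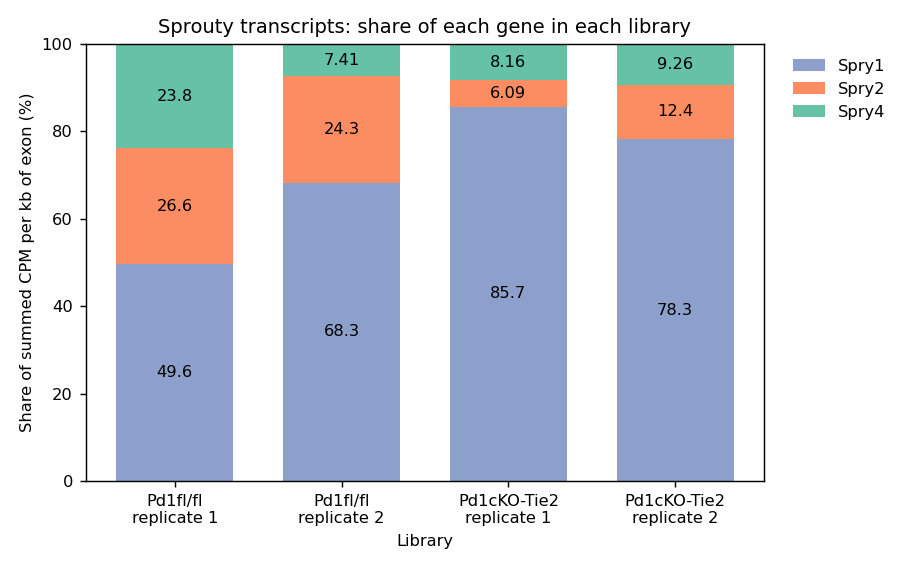
Share of Spry1, Spry2 and Spry4 in their summed CPM per kb of exon (vertical axis, in percent) in each of the 4 libraries. The Spry2 segment is 26.6% and 24.3% in the Pd1fl/fl libraries and 6.09% and 12.4% in the Pd1cKO-Tie2 libraries, while Spry1 takes the largest share in all 4.

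The SPRED proteins bind neurofibromin and bring it to RAS at the membrane. Spred1 (chromosome 2, 117121374 to 117182279, plus strand) was at 22.4, 19.2, 22.6 and 17.6 CPM, and the Pd1cKO-Tie2 values enclosed those of Pd1fl/fl. Its log2 fold change was -0.05 (SE 0.35, 95% interval -0.90 to 0.80). Spred2 (chromosome 11, 19924375 to 20024026, plus strand) was at 3.81, 5.34, 2.71 and 7.60 CPM, from 55, 76, 65 and 104 counts. The Pd1cKO-Tie2 libraries differed 2.80-fold from each other, more than any other member within a genotype. With a 95% interval from -1.95 to 2.29 around a log2 fold change of 0.17, a 2-fold difference in Spred2 in either direction was not detectable here.

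The wider pathway was followed in 7 lists of 72 genes, of which 70 were tested. A single gene, Mapk13, was called, against the 4.02% called among all genes. At an unadjusted p of 0.05 or less there were 7 genes of the 70 by edgeR, beside 1016 of all 15909, and 0 at an adjusted p under 0.05. The median log2 fold change was 0.13, with 46 genes above 0 and 24 below, while 7888 of all genes were above 0 and 8021 below. Both Pd1cKO-Tie2 libraries were above both Pd1fl/fl libraries for 17 genes of the 70 and below them for 10, beside 17.7% and 18.1% of all genes tested.

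Of the 9 receptors, 8 had a log2 fold change above 0 and 0 were called, with a median of 0.28. The exception was Met, the receptor of hepatocyte growth factor, which was named after its values were seen. It had 44 and 45 counts in the Pd1fl/fl libraries against 0 and 14, so both knockout libraries were lower, with a log2 fold change of -2.61 (95% interval -7.76 to 2.53, adjusted p = 0.983 by edgeR), and it met the criterion without Pd1cKO-Tie2 replicate 2. Kdr, the main VEGF receptor of endothelial cells, was at 1060, 1070, 1300 and 1270 CPM, and Flt1, the VEGF receptor that acts largely as a decoy, at 500, 539, 683 and 680 CPM. Both were higher in both Pd1cKO-Tie2 libraries, with log2 differences of 0.28 and 0.39 (adjusted p = 0.753 and 0.735 by edgeR, each with an unadjusted p under 0.05). Kdr and Flt1 belong to the endothelial markers, as does the receptor Tek (log2 difference 0.33), named here for this overlap. That marker list had a median of 0.34. Whether the differences of these receptors stand apart from that of endothelial RNA as a whole was not tested.

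Among the 14 genes of RAS and its adaptors 0 were called, with a median of 0.11. Nras, one of the RAS GTPases themselves, was at 626, 546, 517 and 653 CPM. The adaptor Shc1 had a log2 difference of 0.26, the small GTPase Rras one of 0.58 and the RAS GTPase activator Rasa2 one of -0.45. The 10 genes of the kinase cascade and its scaffolds had a median of 0.11 and 0 calls. Here Shoc2, a scaffold for RAF activation, had the smallest p, with an adjusted p of 0.823 by edgeR, at 186, 159, 116 and 140 CPM, and was lower in both Pd1cKO-Tie2 libraries. Log2 differences were 0.19 for the scaffold Iqgap1 and 0.12 for Pea15a, a protein that holds ERK in the cytoplasm.

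The 8 other phosphatases and feedback genes included 7 that were tested, with a median of 0.02 and 0 calls, while Dusp9 was not in the tables used here. Dusp1, a nuclear phosphatase induced by growth factors and stress, was at 809, 1230, 618 and 749 CPM, with a log2 fold change of -0.58 (SE 0.22, adjusted p = 0.76 by edgeR). Dusp7, a cytoplasmic relative of Dusp6, was at 23.2, 33.0, 42.5 and 47.3 CPM (log2 difference 0.68, adjusted p = 0.844 by edgeR). These 2 phosphatases lay on opposite sides of the Pd1fl/fl libraries, and neither met the criterion. The list of ERK kinase targets and ETS factors had a median of 0.15 and 0 calls among 9 genes, with log2 differences of 0.36 for Elk3 and 0.17 for Ets1.

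Among transcripts that ERK induces, 9 of 10 were tested, 0 were called, and the median was -0.25. Ier3, an early response gene, was at 135, 142, 81.8 and 75.1 CPM, with a log2 fold change of -0.82 (SE 0.18). Egr1, an early response transcription factor, was at 1840, 2660, 1220 and 1610 CPM (log2 fold change -0.67, SE 0.22). Ccnd1, the cyclin that carries cells through G1, went the other way, at 227, 144, 315 and 267 CPM (log2 fold change 0.65, SE 0.25). All 3 had an unadjusted p under 0.05 by edgeR but none reached a 2-fold difference, and their adjusted p-values were 0.735 to 0.753. Egr1 and Ier3 were lower in the libraries with less microglia and radial glia RNA, and the part of those cells was not tested.

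Fosl1, an AP-1 component that the filter on low counts left untested, is named because of its values. Its count was 16 and 75 in the Pd1cKO-Tie2 libraries, against 0 in either Pd1fl/fl library. Against the 3 counts that a count of 0 allows in each Pd1fl/fl library, its observed mean level was at least 14.7-fold higher. This bound leaves out the spread and counting error of the Pd1cKO-Tie2 libraries, which were at 0.668 and 5.48 CPM. DESeq2 gave Fosl1 an adjusted p of 0.131. Its counts in Pd1cKO-Tie2 differed between libraries, with the higher value in the shallower one.

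The parallel JNK, p38 and ERK5 arms held 12 genes, with a median of 0.22 and the 1 call. Mapk13, the p38 delta kinase, had 44 and 23 counts in Pd1fl/fl and 0 in both Pd1cKO-Tie2 libraries. Its mean level in Pd1cKO-Tie2 was at least 13.5-fold lower against 3 counts per library (adjusted p = 0.735 by edgeR). This bound takes the observed Pd1fl/fl mean as exact, and the list's median was 0.22 also with Mapk13 at this bound. The call held without Pd1fl/fl replicate 2 and was lost on leaving out any other library, by limma-voom, and with at least 10 counts in every library, a filter that removes the gene. Mapk8, encoding JNK1, had a log2 difference of 0.21, and the MAP2K genes Map2k3 and Map2k4 had 0.24 and 0.54. The 95% intervals of both of these kinases included 0.

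**Figure D5:**
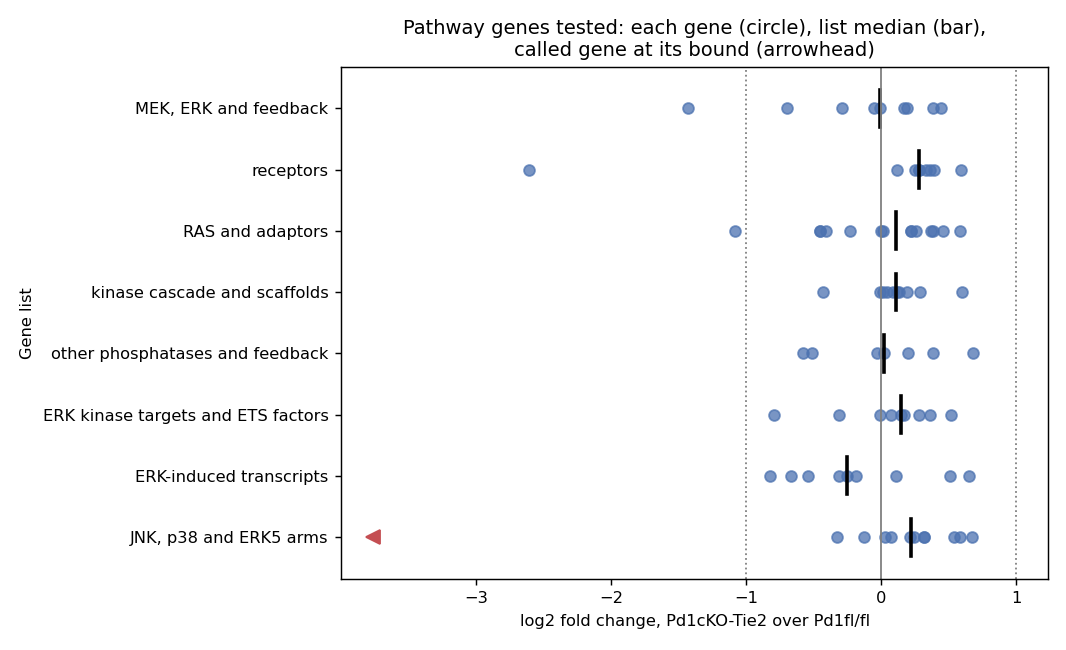
Log2 fold change, Pd1cKO-Tie2 over Pd1fl/fl (horizontal axis), of each tested gene in the group of 9 and in the 7 pathway lists, with a black bar at each median and dotted lines at a 2-fold change. The arrowhead is Mapk13, the one called gene, drawn at its bound of -3.76, and the medians lie between -0.25 and 0.28.

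The genes whose pattern over the 4 libraries was nearest to the mean of the 9 members, by the distance of centred log2 CPM, were Ptcd2, Pspc1 and Afg3l1 at distances of 0.02, 0.033 and 0.041. For Dusp6 alone the nearest were Trps1 at 0.037, Ndufc1 at 0.042 and 4932438A13Rik at 0.057. With 4 libraries and 15909 genes to choose from, such distances describe the libraries only.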

How the data were processed

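Brain endothelial cells of Pd1fl/fl and Pd1cKO-Tie2 mice were sequenced in 2 libraries per genotype. In each of the 4 tables deposited by the authors, 1 library of one genotype stands beside 1 of the other. The counts are raw reads per gene as deposited by the authors. The deposited CPM values are counts divided by the library total, and served to recover the totals. The deposited fold changes and p-values of the authors' own comparisons were not used. The submitters' processing notes name Bowtie2 2.2.3, TopHat2 2.0.12, HTSeq 0.6.0 and the build mm9, yet the positions in the tables are those of GRCm38, with 90.3% equal to GENCODE M21. The use of strand is not given in the sources used here. One Pd1cKO-Tie2 column (replicate 2 here) has a number that no label gives and was assigned by genotype alone. A total of 10 broken lines were skipped and 23 symbols turned into dates were restored. Unlisted genes were given a count of 0, and their reads came to at most 0.0107% of a library.

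The main test was edgeR 4.0.16 (R 4.3.3), the quasi-likelihood F test with TMM scaling after filterByExpr, over 15909 genes, with Benjamini-Hochberg adjustment. A gene was called at a fold change of at least 2 and p of 0.05 or less, the study's criterion. The common biological coefficient of variation was 0.61. Totals were 13715837 to 24147311, and 3 counts correspond to 0.124 to 0.219 CPM. Intervals of counts are exact Poisson intervals and cover counting error only. Exon lengths came from GENCODE M21 and promoters from RefSeq. Alternatives were DESeq2 1.42.0, limma-voom (limma 3.58.1), other filters and scalings, and leaving out each library. The edgeR step was tested on simulated data. Members, gene lists and tests were chosen with earlier results of these data known. From each pathway list the text names every called gene, the 2 genes with the smallest p and the 2 with the highest mean CPM, except that 2 genes of these lists are not reported here.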

Additional observations from a re-analysis of the deposited data

How the results depend on the processing

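With 2 libraries per genotype the data limit what can be seen, above all for Spred2, Spry4, Spry2 and Spry1, whose intervals reach past a 2-fold difference. No paired analysis was possible because the labels of the 2 genotypes share a single replicate number. Leaving out a library leaves 1 in its genotype, which edgeR then takes to vary like the other genotype. The number of members called, 0, became 1 by limma-voom, with at least 10 counts in every library and with library totals only, each time Spry2, and 0 to 1 on leaving out a library (Spry1 without Pd1fl/fl replicate 2, Spry2 without Pd1cKO-Tie2 replicate 2).

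The log2 fold change of Spry2 was -1.66 by limma-voom, -1.43 with at least 10 counts in every library and -1.50 with library totals only, and -2.09 to -0.96 on leaving out a library. Leaving out a library gave 0.04 to 1.01 for Spry1, -0.18 to 0.19 for Map2k1, -0.08 to 0.53 for Mapk3, -1.16 to 0.01 for Spry4, -0.23 to 0.12 for Spred1 and -0.75 to 0.74 for Spred2. By limma-voom Map2k1 was at 0.02 and Spred2 at -0.19. Map2k2 and Dusp6 kept their direction in all alternatives and met the criterion in none. The cause of these shifts was not tested.

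Among all genes, the main fit called 640 of 15909, DESeq2 936 of 21578 and no filter beyond 1 count 698 of 21578. Of the pathway lists, 1 gene was called. It was 2 by DESeq2 and with no filter beyond 1 count (Fosl1 and Mapk13), 0 by limma-voom and with at least 10 counts in every library, and 1 to 2 on leaving out a library. Those were Ccnd1 and Fosl1 without Pd1fl/fl replicate 1, Fosl1 and Mapk13 without Pd1fl/fl replicate 2, Sos1 and Fosl1 without Pd1cKO-Tie2 replicate 1, and Met without Pd1cKO-Tie2 replicate 2. Genes with an adjusted p under 0.05 numbered 0 by edgeR, with 1016 at an unadjusted p of 0.05 or less, 114 by DESeq2 and 0 to 1 on leaving out a library. The raw count share of Spry2 among Spry1, Spry2 and Spry4 differed by -11.3 percentage points (Pd1cKO-Tie2 minus Pd1fl/fl), and by -10.7 with Spry3 in the sum, an alternative chosen after seeing the data, against -16.2 for the share per kb.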
